A study of Mus musculus with 4 samples.

Results

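Eph receptors and ephrins form a signalling family in which both partners sit on cell membranes, and 10 of its genes were followed in cultured mouse ureters after WNT secretion was blocked. They are the receptor genes Epha8, Epha3, Epha4, Epha7, Ephb1, Ephb2, Ephb3 and Ephb4 and the ligand genes Efnb1 and Efnb2, out of 22 Eph and ephrin genes on the array and 29924 gene names in all. These genes were chosen around Epha8 with their measured ratios known, so that the ratios describe how they were selected and carry no test. All probes that the array files name for a gene were taken, which gave 14 probes for the 10 genes.

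Ureters were taken from wildtype NMRI embryos at E12.5, with the sex not determined, and kept as explants on transwell membranes for 18 h. The treated pools received 10 µM IWP-2, an inhibitor of Porcupine, the acyltransferase without which WNT ligands stay in the cell. The control pools received the solvent DMSO. Each of 4 two-colour arrays compared RNA of 1 treated pool with RNA of 1 control pool, and the treated RNA was labelled red on arrays 1 and 3 and green on arrays 2 and 4. The labels number the pools 1 to 4 in each group, and the methods of the study give n = 4 for E12.5. A figure legend of the study speaks of fewer pools. Whether arrays share pools is not settled by these sources, and if some do, the spread between arrays understates that between pools. IWP-2 acts on every WNT-secreting cell of the explant, and the RNA came from whole ureters with epithelium, mesenchyme, vessels and nerve cells together.

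Eph receptors are receptor tyrosine kinases. EphA receptors mostly bind ephrin-A ligands, which are held in the membrane by a lipid anchor, and EphB receptors mostly bind ephrin-B ligands, which span the membrane; EphA4 binds both classes. Contact between a receptor on one cell and a ligand on its neighbour signals in both directions and often leads to repulsion, and in embryos the family is known for keeping tissue borders sharp, guiding axons and separating arteries from veins. In the ureter, WNT signals from the epithelium act on the adjacent mesenchyme.

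The probes are 60 bases long, and the letters of a few bear on how far their values can be read. The probe of Epha8 (A_55_P2100485) lies at chr4:136485335-136485394 on the minus strand of mm9. Its last 30 bases are shown with AATAAA, the letters of the usual polyadenylation signal, in capitals. The only probe of Ephb3 (A_55_P2054332, chr16:21223165-21223224, plus strand of mm9) ends in a run of GT repeats, which is 33 bases long in the whole probe. A probe of Epha5 (A_55_P2062911, chr5:84487348-84487407, minus strand), a family gene outside the 10, holds such a run of 20 bases, and another Epha5 probe (A_55_P2100425, chr5:84483837-84483896, minus strand) holds none. The last 30 bases of each follow, with the repeat run in capitals for Ephb3 and Epha5.
Epha8 A_55_P2100485: tgtgatgagAATAAAtactgtctcatcttc
Ephb3 A_55_P2054332: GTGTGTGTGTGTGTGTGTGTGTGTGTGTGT
Epha5 A_55_P2062911: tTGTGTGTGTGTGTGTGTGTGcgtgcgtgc
Epha5 A_55_P2100425: tttgtgtacatgtttttgtagtgtaagata

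Probes of different family genes had little sequence in common. The longest run of letters that a probe shared with a probe of another family gene had a median of 8 bases over the 31 probes, and the longest was the run of 20 bases shared by the repeats of Ephb3 and Epha5. No annotation of mm9 was used here, so that the probes are not assigned to exons or untranslated regions. The other genes lie on chromosomes 1 (Epha4), 4 (Epha7 and Ephb2), 5 (Ephb4), 8 (Efnb2), 9 (Ephb1), 16 (Epha3) and X (Efnb1).

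The promoter of Epha8 is printed because Epha8 showed the largest change of the family. The 250 bases before its RefSeq start (GRCm38.p6, chr4:136956817-136957066, minus strand) are given in lower case because no motif searched was found there.
Epha8 promoter: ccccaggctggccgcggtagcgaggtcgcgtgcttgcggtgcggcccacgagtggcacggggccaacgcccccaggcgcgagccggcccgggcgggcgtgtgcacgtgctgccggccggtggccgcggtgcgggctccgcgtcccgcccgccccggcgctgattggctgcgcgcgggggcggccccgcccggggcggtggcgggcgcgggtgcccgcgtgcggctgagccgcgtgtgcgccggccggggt

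Of these bases 84.0% are G or C, against a median of 52.4% over the 32851 promoters of the RefSeq table, and 0.27% of all promoters reach this share. The promoter holds 46 CG dinucleotides against a median of 6, a count that 0.32% of promoters reach. The motif searched was that of TCF/LEF factors, the DNA-binding partners of beta-catenin in WNT signalling, as CTTTG followed by 2 letters that are each A or T, on either strand. Its forms with CTTTGT overlap the motif of SOX factors. None of the 10 genes had a match in this window, against 2 of the 11 other family genes with a promoter in the table (Epha2 and Efna4) and 14.8% of all promoters. That says only that these letters are not in the 250 bases.

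Levels are log2 intensities of 1 channel after normalization, and a log2 ratio is IWP-2 over control on the same array, with errors as the SD between the 4 arrays. The brightness of different probes is not comparable, so that a level is read only against the same probe in the other channel. The lowest level called well above background lay between 6.41 and 6.48 on the 4 arrays, and all 14 probes were well above background in both channels of every array. The RNA came from whole explants, where fewer cells of a type and less RNA per cell cannot be told apart.

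Epha8 encodes an EphA receptor known from the developing brain. Its control level was 10.18, 10.35, 10.72 and 10.21 on arrays 1 to 4, and its level with IWP-2 was 7.88, 7.80, 7.93 and 7.68. All treated levels were below all control levels, by a margin larger than the spread within either channel. The log2 ratios were -2.29, -2.55, -2.79 and -2.53, with a mean of -2.54 ± 0.20 (SD, n = 4), a level 5.82-fold lower. The mean was -2.54 with the treated RNA in red and -2.54 with it in green, and the 4 spots of the probe on an array had an SD of 0.06 to 0.15. Of the 22461 genes tested, 8, with Epha8 among them, had a mean ratio this low or lower. Without the offset of 50 that was added to the background-corrected intensities, the mean ratio was -2.86.

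**Figure D1:**
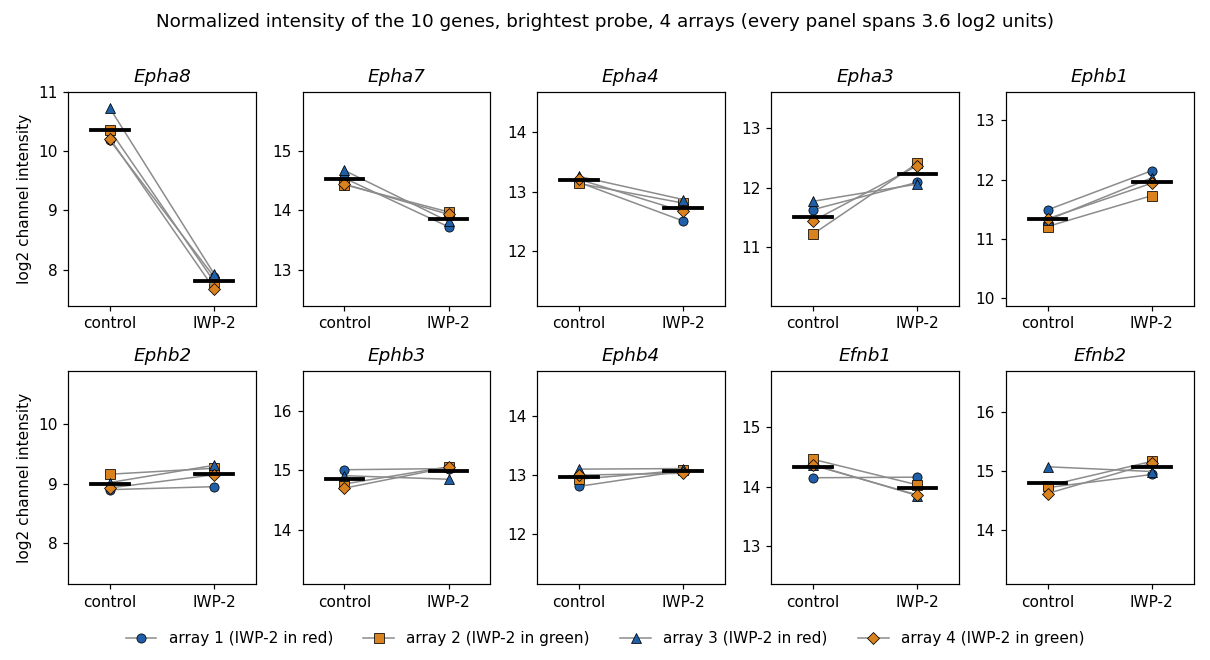
Normalized log2 intensity (y axis) of the brightest probe of each of the 10 genes in the control and IWP-2 channels (x axis) of 4 arrays. Lines join the channels of an array, black bars are means, and every panel spans the same range of log2 units. Epha8 fell from a mean of 10.36 to 7.82, the channels of Epha7 and Epha4 were also apart in the downward direction and those of Epha3 and Ephb1 in the upward direction, and the channels of the other 5 genes overlapped.

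The other EphA receptors moved less and not in 1 direction. Epha7, known from axon guidance and for a splice form without the kinase, was read by 3 probes. The brightest, for transcript variant 1, had control levels of 14.54, 14.43, 14.67 and 14.44 and treated levels of 13.72, 13.97, 13.81 and 13.93. Its channels did not overlap. Its log2 ratios were -0.82, -0.47, -0.86 and -0.51, with a mean of -0.67 ± 0.21 (SD, n = 4), a level 1.59-fold lower. The probes for transcript variant 2 gave -0.73 ± 0.24 and -0.61 ± 0.10, so that the means of the 3 probes lay closer together than the spread between arrays of the brightest probe. On the brightest probe the mean was -0.84 with the treated RNA in red and -0.49 with it in green, so that the size of the fall differed with the dye. The probes for variant 2 also fell further with the treated RNA in red. The channels of both probes for variant 2 were apart as well.

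Epha4 encodes the receptor that takes both ligand classes. Its control levels of 13.16, 13.14, 13.26 and 13.21 were all above its treated levels of 12.51, 12.81, 12.87 and 12.67. The log2 ratios were -0.65, -0.34, -0.39 and -0.53, with a mean of -0.48 ± 0.14 (SD, n = 4) or 1.39-fold lower. These ratios overlapped those of Epha7.

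Epha3, whose product binds ephrin-A5 with high affinity, had the highest mean ratio of the 10 genes. The control levels were 11.63, 11.22, 11.77 and 11.44 and the treated levels 12.09, 12.41, 12.06 and 12.37. All treated levels were above all control levels. The log2 ratios of 0.45, 1.19, 0.29 and 0.94 gave a mean of 0.72 ± 0.42 (SD, n = 4), 1.64-fold higher. With the treated RNA in red the mean was 0.37, and with it in green 1.06, so that the size of the rise differed with the dye. The dye term of Epha3 was -0.35 in the limma fit (adjusted p = 0.15). This term passed for 0 genes on the array, so that not passing says little about Epha3. The direction was the same on all 4 arrays.

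Among the EphB receptors, Ephb1 changed most. Its control levels were 11.49, 11.21, 11.32 and 11.34 and its treated levels 12.15, 11.73, 12.03 and 11.94. The channels did not overlap. The log2 ratios were 0.67, 0.53, 0.70 and 0.61, with a mean of 0.62 ± 0.08 (SD, n = 4) or 1.54-fold higher. Its spread between arrays was the smallest of the 10 genes by their brightest probes.

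Ephb2 had control levels of 8.90, 9.16, 9.02 and 8.93 and treated levels of 8.95, 9.26, 9.31 and 9.15, which overlapped. Its mean log2 ratio was 0.16 ± 0.11 (SD, n = 4). EphB2 and EphB3 are known for placing cells along the intestinal crypt. For Ephb4, the receptor of veins, the mean ratio was 0.11 ± 0.11 on the brighter probe and 0.03 ± 0.15 on the other. Array 1 gave the highest Ephb4 ratio on both probes, 0.25 and 0.24, against 0.14 or less on the other arrays. In the limma fit with the dye term, leaving out array 1 took the ratio of the brighter probe to 0.04 and leaving out array 3 to 0.17. Leaving out array 3 took the ratio of Ephb2 to 0.10. That fit weighs an array left alone in its dye order as much as the other pair.

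Ephb3 was measured by the repeat probe alone. Its control levels were 15.01, 14.77, 14.91 and 14.70 and its treated levels 15.03, 15.06, 14.85 and 15.05. The ratios of 0.02, 0.29, -0.06 and 0.35 were near 0 with the treated RNA in red and above 0 with it in green, and the mean was 0.15 ± 0.20 (SD, n = 4). Across the array 69 tested probes hold a run of at least 8 GT units. Their median ratios on the 4 arrays were 0.03, 0.23, -0.03 and 0.31, close to those of Ephb3, and the median over all 29943 tested probes lay between -0.01 and 0.00 on each array. The green pair of arrays was above the red pair for 97.1% of the GT probes and for 49.8% of all tested probes. The same held for 96.9% of 32 probes with a run of CA units. Whether the Ephb3 value reads the Ephb3 transcript was not tested.

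**Figure D2:**
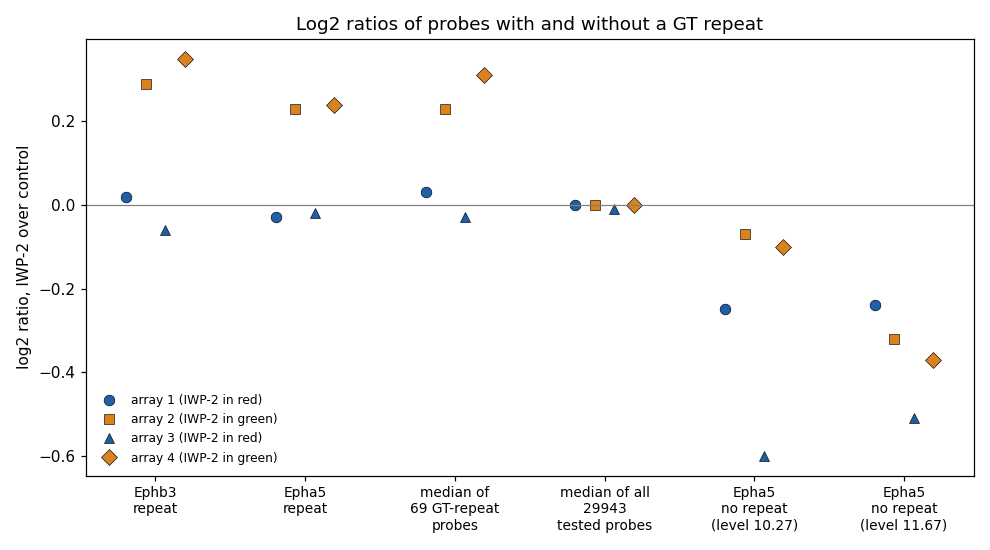
Log2 ratio of IWP-2 over control (y axis) on each of 4 arrays for the Ephb3 probe, the 3 Epha5 probes and the medians of GT-repeat probes and of all tested probes (x axis), with symbols for arrays and colours for the dye of the treated RNA. The repeat probes of Ephb3 and Epha5 and the median of 69 GT-repeat probes share high values on arrays 2 and 4, and the Epha5 probes without a repeat lie below 0 on all 4 arrays.

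The ephrin-B ligand genes had mean ratios of opposite sign. Efnb1, an X-linked gene known from craniofacial development, had control levels of 14.15, 14.46, 14.37 and 14.36 and treated levels of 14.16, 14.03, 13.85 and 13.86. The channels overlapped through array 1 alone. The log2 ratios were 0.02, -0.43, -0.51 and -0.50, with a mean of -0.36 ± 0.25 (SD, n = 4). In the limma fit with the dye term, the ratio was -0.49 without array 1 and -0.22 without array 3.

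Efnb2, the ligand of arteries, had control levels of 14.72, 14.75, 15.07 and 14.62 on its brighter probe and treated levels of 14.94, 15.16, 14.99 and 15.13. The ratios were 0.23, 0.41, -0.07 and 0.51, with a mean of 0.27 ± 0.26 (SD, n = 4). The mean was 0.08 with the treated RNA in red and 0.46 with it in green. The other probe gave 0.12, 0.22, 0.14 and 0.21, above 0 on every array, with a mean of 0.17 ± 0.05, and its channels overlapped because its control level varied between arrays from 9.56 to 10.05.

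In the order of their mean ratios the 10 genes ran from Epha8 over Epha7, Epha4, Efnb1, Ephb4, Ephb3, Ephb2, Efnb2 and Ephb1 to Epha3. The ranges of neighbours in this order overlapped except at 2 places. The means of Epha8 and Epha7 were 1.87 apart, and those of Efnb2 and Ephb1 were 0.35 apart, both without overlap of the arrays. The median size of the ratio, irrespective of sign, was 0.42 for the 10 genes, 0.11 for the other 12 family genes and 0.10 for all genes tested. Nothing follows from this difference, since the 10 genes were chosen with their ratios known.

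In the limma fit over all genes, a gene was called at a Benjamini-Hochberg adjusted p under 0.05, which 14.9% of the genes tested passed as lower and 18.1% as higher. Of the 10 genes, 4 were called lower (Epha8, Epha7, Epha4 and Efnb1), 4 higher (Epha3, Ephb1, Ephb3 and Efnb2) and 2 neither way. The call of Ephb3 was lost in 9 of the 14 alternative fits that measured it, among them each fit without 1 array. The call of Efnb2 was lost without the dye term and in the series table, those of Epha4 and Efnb1 in the series table, and Ephb2 was called without array 1. All treated levels were below all control levels for 3 of the 10 genes and 11.5% of the genes tested, and above them for 2 of the 10 genes and 10.9%. Nothing follows from these counts, since the genes were selected on the same ratios.

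**Figure D3:**
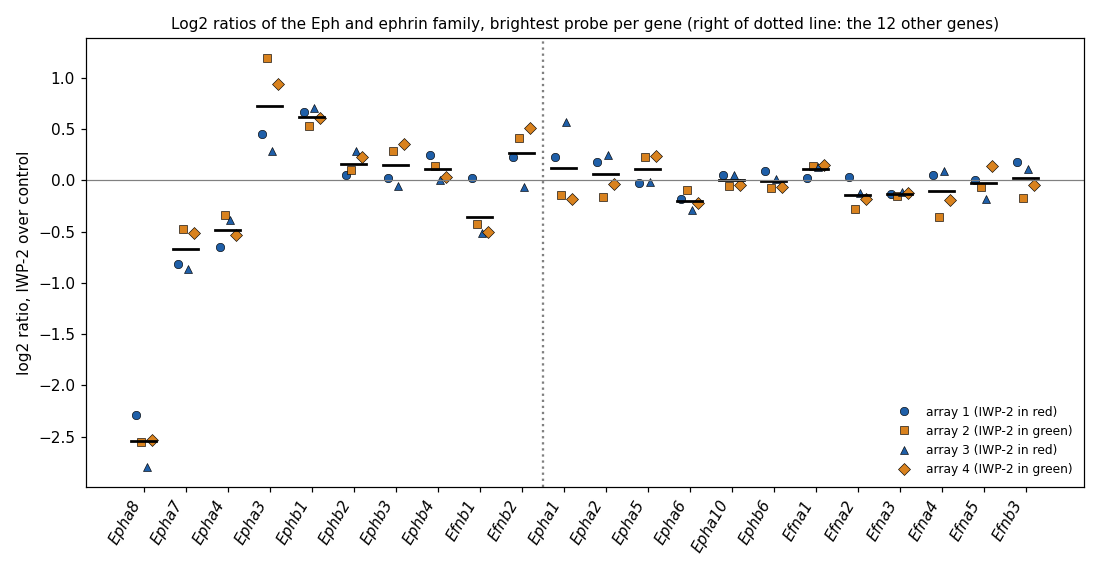
Log2 ratio of IWP-2 over control (y axis) on each of 4 arrays for the 22 Eph and ephrin genes (x axis), with colours for the dye of the treated RNA and black bars for means. Epha8 lies apart at a mean of -2.54, and the means of the 12 other genes lie between -0.20 and 0.12. Several genes differ with the dye. Epha3 and Efnb2 are among those higher with the treated RNA in green, and Epha1 is among those lower.

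The family genes outside the 10 are the receptor genes Epha1, Epha2, Epha5, Epha6, Epha10 and Ephb6 and the ligand genes Efna1 to Efna5 and Efnb3. They are what remained of the family once the 10 were chosen with the ratios known, so that nothing about the family follows from their counts or sizes. All 12 were tested, 2 were called lower and 0 higher, against 14.9% and 18.1% of all genes tested, and their mean ratios ran from -0.20 to 0.12. At an unadjusted limma p under 0.05, 3 of them were lower (Epha6, Efna3 and Efna2) and 2 higher (Epha5 and Efna1), against 20.3% and 23.7% of all genes. Epha6 fell with log2 ratios of -0.18, -0.09, -0.29 and -0.22, a mean of -0.20 ± 0.08 (SD, n = 4; limma adjusted p = 0.018). Its levels of 6.69 to 6.96 in the control were just above the lowest level called well above background, and with IWP-2 it passed on 3 of 4 arrays. Its ratio was -0.37 without the offset, -0.69 with the processed signals and 0.00 in the series table, where it was not called. Efna3 fell by 0.13 ± 0.02 on the log2 scale (n = 4; limma adjusted p = 0.0422). Without array 3, or without array 4, neither gene was called. Without array 1, or without array 2, Epha6 was called and Efna3 was not.

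Epha5 was not called on its brightest probe, which is the repeat probe. That probe gave -0.03, 0.23, -0.02 and 0.24, a mean of 0.11 ± 0.15 (SD, n = 4; limma adjusted p = 0.0736). The next brightest gave -0.24, -0.32, -0.51 and -0.37, and the dimmest -0.25, -0.07, -0.60 and -0.10. These are means of -0.36 ± 0.11 and -0.26 ± 0.24, below 0 on all 4 arrays for both. When probes with a GT or CA run were left out, a choice made after these values were seen, Epha5 fell by 0.36 on the log2 scale (limma adjusted p = 0.004), and with the mean of all 3 probes it fell by 0.17 (limma adjusted p = 0.0315).

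Genes that act downstream of Eph receptors or ephrins were taken from a list of 36 adaptors, GTPase regulators, kinases and proteases, all of which were tested. The list had 3 genes that fell, 10 that rose and 23 that were not called, against 14.9% lower and 18.1% higher over all genes tested. Its median log2 ratio was 0.06 against 0.00 over all genes. The higher count was 4 without array 1 or without array 4, 5 with median centring and 3 without the replicate block. The largest change was that of Chn2, a chimaerin that lowers Rac activity and whose relative Chn1 acts below EphA4 in axons. Its log2 ratios were -0.63, -0.72, -0.89 and -0.81, with a mean of -0.76 ± 0.11 (SD, n = 4; limma adjusted p = 0.000274). With the mean of all its probes, the ratio of Chn2 was -0.59. The mean ratio of Chn1 was -0.10 ± 0.04, which was not called (adjusted p = 0.104). The genes that rose had mean ratios of 0.14 to 0.45, with the scaffold gene Anks1b as the highest. Of these, Itsn1 was read by a GT-repeat probe.

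Axin2, a feedback target of WNT signalling, served as the check of the compound. Its log2 ratios were -1.48, -1.68, -1.57 and -1.53, with a mean of -1.56 ± 0.09 (SD, n = 4; limma adjusted p = 1.23e-05). By the brightest probe of each gene, the fall of Epha8 was the larger in log2 units on every array. With the mean of all its probes, the ratio of Axin2 was -1.07.

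Markers of several cell types were read beside these genes. Of 6 epithelial markers (Epcam, Cdh1, Krt8, Krt18, Krt19 and Cldn7) 6 rose, by 0.24 to 0.34 on the log2 scale, and their summed intensity was 167546 to 178669 in the control channels and 190301 to 237485 in the IWP-2 channels. Of 6 endothelial markers 4 rose (Pecam1, Cdh5, Cldn5 and Kdr), with a range of 0.03 to 0.37 over the list, and the summed intensity of 51961 to 60460 in the control overlapped that of 59536 to 69843 with IWP-2. Efnb2 and Ephb4 are expressed in vessels, and their mean ratios of 0.27 and 0.11 lay within the range of the endothelial list. The ratio of Efnb2 lay within the epithelial and nephron progenitor ranges as well. That of Ephb4 was near the median size of 0.1 over all genes tested. Of 6 mesenchymal markers Tbx18 fell (-0.74 ± 0.26; adjusted p = 0.00171), Pdgfrb rose (0.80 ± 0.07; adjusted p = 9.34e-05) and 4 were not called, and the summed intensity was 361261 to 390874 in the control and 374513 to 416726 with IWP-2. The study clipped the ureters at the kidney to keep out other tissue, and whether nephron progenitors were in the explants was not tested. Of 5 nephron progenitor markers 5 rose, by 0.16 to 1.14, with 43166 to 47911 in the control and 50456 to 57810 with IWP-2. Of these, Eya1 was read by a GT-repeat probe, with ratios of 0.02, 0.32, -0.07 and 0.40 on the 4 arrays. The call of Eya1 was lost in 6 of 14 alternative fits and that of Cited1 in 9 of 15. The ratio of Six2 was 0.75 with the mean of all its probes. All of these markers were well above background in every channel. The part of cell type shares in the ratios of the Eph and ephrin genes was not tested.

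Epha8 and Ephb2 lie close together on chromosome 4, with the complement genes C1qb, C1qc and C1qa between them in the RefSeq gene order. The log2 ratio of Ephb2 was 0.16 ± 0.11, and those of C1qb, C1qc and C1qa were 0.29 ± 0.21, 0.28 ± 0.21 and 0.20 ± 0.22 (SD, n = 4; limma adjusted p = 0.00585, 0.0108 and 0.0118). The C1q ratios were higher on the arrays with the treated RNA in red. Those of C1qa were 0.44 and 0.33 there, and 0 and 0.03 with the treated RNA in green. Their p-values come from the fit with the dye term, which takes up this difference. On the other side of Epha8, Zbtb40 had a ratio of -0.01 ± 0.06, Wnt4 one of -0.27 ± 0.07 (limma adjusted p = 0.00443) and Cdc42 one of 0.07 ± 0.09. No measured neighbour in this stretch had a fall near that of Epha8.

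By the distance over the 4 log2 ratios, the genes nearest to Epha8 that were well above background in both channels were Ptger2 (distance 0.35), Hhip (0.48), Sp5 (0.54) and Ahr (0.59). Ptger2 encodes a prostaglandin E receptor, Hhip an antagonist of hedgehog ligands, Sp5 a zinc finger factor that is a WNT target in many tissues, and Ahr a ligand-activated transcription factor. Their mean ratios ran from -2.72 ± 0.28 for Sp5 to -2.31 ± 0.14 for Ahr (SD, n = 4). Notumos also fell in this range, but it was not well above background in the IWP-2 channel of any array, so that its ratio of -2.39 is a bound and its place among the nearest genes is not known. The likeness is over 4 arrays that share the same contrast, and it describes the size of the fall alone.

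**Figure D4:**
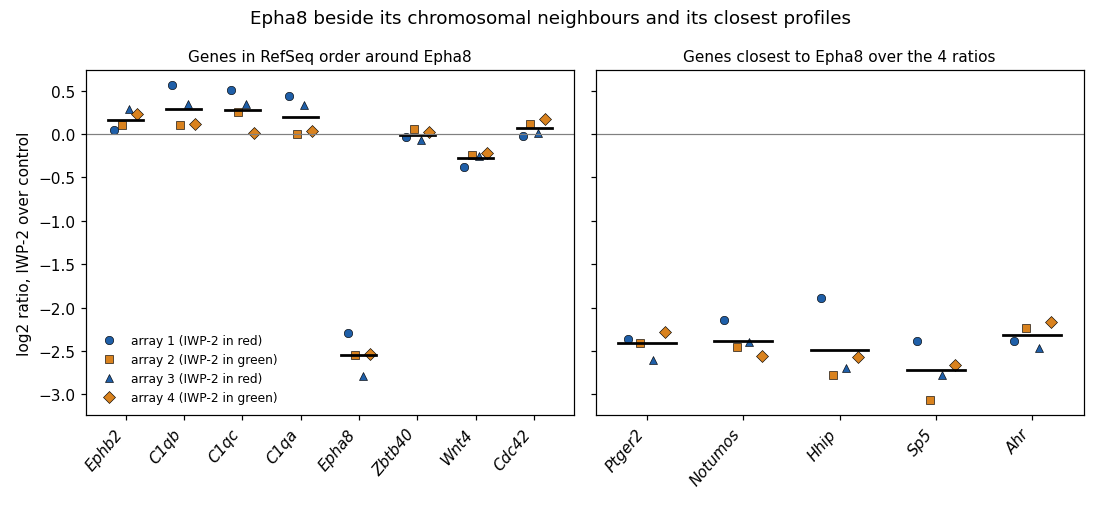
Log2 ratio of IWP-2 over control (y axis) on each of 4 arrays for the measured genes around Epha8 in RefSeq order (left) and the 5 genes nearest to Epha8 by their ratios (right; Notumos is a bound), with colours for the dye of the treated RNA and black bars for means. Epha8 at -2.54 lies far below its chromosomal neighbours, which lie between -0.27 and 0.29, and among the genes on the right, which lie between -2.72 and -2.31.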

How the data were processed

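The authors scanned 4 two-colour Agilent arrays, all on 1 slide and in 1 scan, and ran Agilent Feature Extraction 10.7.3.1 (version per the submitters' processing notes). The deposited files give raw intensity per channel, processed intensity that was background-subtracted, detrended and dye-normalised, and a log10 ratio of the processed signals. A deposited series table holds a score per probe and array, a signed fold change whose normalization is not stated. Its log2 values followed the processed treated over control ratio with r of 0.96 to 0.964 across 29017 probes, and it served as an alternative.

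Raw intensities were corrected in limma 3.58.1 (R 4.3.3) with normexp (offset 50) and normalised by loess (span 0.3) within each array. The offset draws ratios of dim probes towards 0. The spots of a probe (4 per array) were averaged without control spots and flagged spots (3.01% to 3.38%), and no spot was saturated. Channel levels are after Aquantile. Probes entered the fit when over 0.5 of their spots were well above background in 4 control or 4 treated channels (29943 probes), and the brightest was taken per gene (22461 genes). The fit (lmFit, eBayes) held treatment and a dye term over 4 arrays, and p was two-sided and adjusted by Benjamini-Hochberg over all genes with 0.05 as the threshold. The dye term passed for 0 genes, and for 4236 at an unadjusted limma p under 0.05. Correlations of the ratios between arrays ran from 0.624 to 0.831 across genes. Median raw intensity was 368 to 711 in control and 385 to 694 in treated channels over a background of 28 to 77, and the number of arrays limits the precision. Nothing says that the pools came from separate litters or days, so that p concerns these pools alone. With the dye term in the fit, p measures the spread between arrays of the same dye order. Differences between pools that go with the dye order are taken up by that term, whereas the SD between the 4 arrays includes them. The fit was tested on simulated data.

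The genes and lists were chosen with earlier results of these data known. Named are all 10 genes with every probe, the other family genes that were called, listed downstream genes called with a log2 change of at least 0.5, the 5 genes nearest to Epha8 by Euclidean distance, and Axin2. Anks1b, Itsn1, Chn1, Epha5, Efna1, Efna2, the C1q genes, Zbtb40, Wnt4, Cdc42 and the cell type markers were named outside this rule with their values seen. Probe sequences and positions (mm9) are from the array files, and promoters from RefSeq (GRCm38.p6), which held 24 promoters of 21 of the 22 family genes. No array was left out of the fit. The result of a further marker list is not reported here.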

Additional observations from a re-analysis of the deposited data

Results flagged for a closer look

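Over 30 probe ratios of the family, an array stood far from the other 3 in 2 cases, where chance alone gives about 1 in 20. The log2 ratio of Efnb1 was 0.02 on array 1 and between -0.51 and -0.43 on the other arrays. The log2 ratio of Efna1, a ligand gene outside the 10, was 0.02 on array 1 and between 0.13 and 0.15 on the other arrays, a difference of smaller size. Both cases concern array 1, whose treated RNA was red, as it was on array 3.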

How the results depend on the processing

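The ratios of the 10 genes were recomputed under 17 alternative settings (Ephb3 under 16, since it has no probe without a repeat), which gave 169 values. Of these, 166 lay within 1 SD of the reported value and 168 kept the sign, with Ephb3 at -0.02 on arrays 1 and 3 alone as the exception. The other 3 were those of Epha8, with a larger fall of -2.86 without the offset, -2.99 with the processed signals and -3.01 in the series table. Many of the values were bound to lie within 1 SD. Aquantile, no dye term, either change of the filter on dim probes and no replicate block leave these mean ratios as they are. The mean of all probes cannot move a gene with 1 probe, and leaving out an array cannot move a ratio beyond the SD between arrays. The count is thus no measure of how stable the ratios are. When an array was left out, the ratio was the treatment coefficient of the fit with the dye term. The array then alone in its dye order weighed as much as the other pair, so that these values are not plain means. Leaving out an array gave -2.67 to -2.42 for Epha8, -0.68 to -0.65 for Epha7, -0.54 to -0.41 for Epha4, 0.65 to 0.78 for Epha3, 0.61 to 0.64 for Ephb1, 0.10 to 0.22 for Ephb2, 0.13 to 0.17 for Ephb3, 0.04 to 0.17 for Ephb4, -0.49 to -0.22 for Efnb1 and 0.19 to 0.34 for Efnb2.

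Over all genes, 3355 were lower and 4063 higher. These counts were 2050 and 1833 in the series table and 2065 and 2039 when the 8 channels were fitted as separate samples with no replicate block for the array. Leaving out an array gave 2160 to 2794 lower, the fewest without array 3, and 2863 to 3328 higher. Of the 12 other family genes 2 were lower and 0 higher. The values of the series table gave 0 lower and 1 higher (Epha5). Median centring, no dye term and the strict filter on dim probes gave 1 lower each, the fit without the replicate block 0, and leaving out an array 0 to 1 lower and 0 to 1 higher (Epha1 without array 1). Epha5 turned to -0.17 with the mean of its probes and, in a setting added after seeing the data, to -0.36 without repeat probes. Of the downstream list, 3 were lower and 10 higher. The lower count was 1 in the series table, 5 with the mean of all probes and 2 to 4 when an array was left out. The higher count was 5 with median centring, 3 without the replicate block and 4 to 8 when an array was left out, the fewest without array 1 and without array 4. Of the 29 tissue markers 1 was lower and 18 higher. The series values gave 0 and 6, the fit without the replicate block 10 higher, and leaving out an array 1 to 2 lower (the 2 without array 1) and 15 to 16 higher. The cause of these shifts was not tested. Median centring moved the median of all genes by -0.011. A block for slide or scan was not run, because all arrays share 1 slide and 1 scan.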
